A study of Mus musculus with 15 samples.

Results

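The 2 Bcat1 knock-out leukemias of the study, KO3 and KO7, were compared with each other across all genes. The comparison takes every library whose label names one of these leukemias, 3 of KO3 and 3 of KO7, which are 6 of the 15 libraries of the series. Both leukemias share genotype, protocol and treatment, so the comparison asks how far 2 leukemias of the same genotype lie apart. In both, progenitors from the bone marrow of Bcat1 knock-out mice (GFP+, Lineage-, cKit+, Sca1+) were transduced with ΔE-NOTCH1, per the labels, and transplanted into lethally irradiated C57BL/6J hosts. ΔE-NOTCH1 is a truncated NOTCH1 receptor that signals without ligand. RNA came from leukemic T cells of the spleen, and the labels give the vehicle PBS as the treatment of both groups. The mouse's age and sex are not in the labels used here. The wild-type leukemias WT6 and WT0 (Bcat1 wild type, same transduction and hosts, PBS) serve only as reference levels. The counting command in the file's first line writes DMSO, and not PBS, for the WT0 vehicle libraries, whose columns are called ctrl. Each group is 1 leukemia, and the labels do not say whether its 3 libraries came from separate mice. Every p-value below therefore reflects how libraries of 1 leukemia scatter, possibly for technical reasons alone, and not the spread between leukemias.

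T cell acute lymphoblastic leukemia arises from T cell progenitors that stop maturing, and NOTCH1 is its most frequent driver. A thymocyte first rearranges the gamma, delta and beta chains of its antigen receptor, carries the pre-receptor chain Ptcra, then expresses CD4 and CD8 together, and at last keeps one of the pair. The beta chain is built from 1 V, 1 D and 1 J segment and a constant gene, so the descendants of 1 transformed cell carry the same segments. BCAT1 is the cytosolic enzyme that starts the breakdown of the branched-chain amino acids, using 2-oxoglutarate to accept their nitrogen and releasing glutamate. The spleen of a leukemic mouse also holds red cell precursors, macrophages, B cells and plasma cells. In RNA of such a tissue, fewer cells of a type and less RNA per cell cannot be told apart.

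Depth was even across the 6 libraries, with 17645879 to 21068573 assigned fragments. Libraries of the same leukemia correlated across genes at 0.994 in KO3 and at 0.993 to 0.994 in KO7, against 0.952 to 0.953 between the leukemias (genes are not independent replicates). No pair of libraries of a group was a duplicate, since their counts differed by more than sampling noise (chi-square per degree of freedom of 1.58 to 3.53). The targeted gene was checked first. Bcat1 (gene ID 12035, GRCm38.p6 chromosome 6, 144993835 to 145076157) had 145, 132 and 170 counts in the KO3 libraries and 42, 47 and 26 in the KO7 libraries. As CPM, which are counts scaled to a common library size with TMM factors, these were 6.85, 6.17 and 7.85 in KO3 and 2.11, 2.67 and 1.48 in KO7. Neither leukemia was free of Bcat1 counts, and the groups did not overlap. The difference was 1.73 on the log2 scale (SE 0.146, edgeR adjusted p = 7.03e-18), and both leukemias stood below WT6 (35.2 CPM) and WT0 (17.8 CPM). Reads were summed over every exon of Bcat1, and which exons the knock-out removes is not given in the sources used here. The labelled cell type was present in both: the 10 T cell markers Cd3d, Cd3e, Cd3g, Cd247, Lck, Thy1, Cd5, Trac, Trbc1 and Trbc2 took 0.724% of counts in KO3 and 0.486% in KO7, and none of them was at 0.

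The receptor genes set the leukemias apart most sharply. Among V segments of the beta chain (TRBV), Trbv15 (chromosome 6, 41141211 to 41141658) held 85.7%, 85.8% and 85.2% of TRBV counts in the KO3 libraries and 16%, 14.8% and 16.3% in the KO7 libraries. Trbv5 (chromosome 6, 41062359 to 41062803) held 78.8%, 80.1% and 78.5% in KO7 and 0.509%, 0.559% and 0.599% in KO3. Each leukemia thus had its own leading V segment, with no overlap between libraries. Among J segments, Trbj2-1 held 45.9 ± 0.496% (SD, n = 3) of TRBJ counts in KO3 and 7.95 ± 0.666% in KO7. In KO7 no J segment led, with Trbj2-5 at 23.7%, Trbj2-7 at 23% and Trbj2-6 at 22.5%. Of the constant genes, Trbc1 stood at 1596, 1611 and 1604 CPM in KO3 and at 139, 137 and 135 CPM in KO7 (log2 3.55, SE 0.026, edgeR adjusted p = 3.17e-85). Trbj2-1 lies between Trbc1 and Trbc2 on the chromosome, and how the Trbc1 excess relates to its lead was not tested. Trbc2 was lower in KO3 by a small margin (log2 -0.30). Trbc1 and Trbc2 are near-identical copies, so their split depends on how the authors' counting treated reads that match both.

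**Figure D1:**
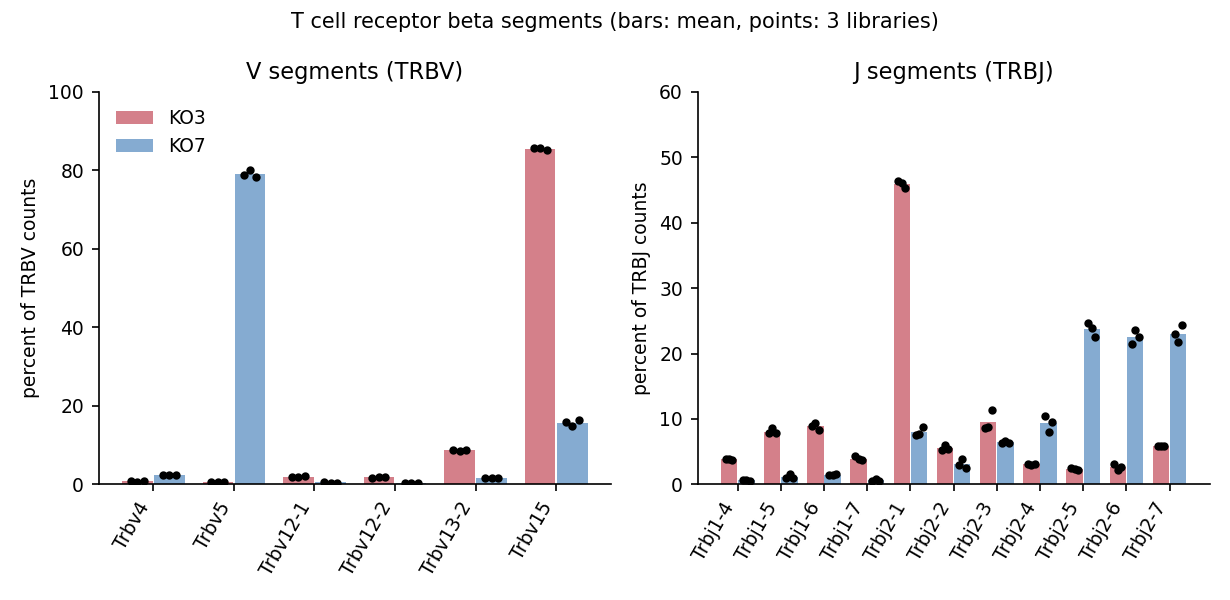
Share of T cell receptor beta V segment (left) and J segment (right) counts in percent, for segments above 1% in either leukemia; bars are means of 3 libraries and points are libraries. Trbv15 held 85.6% of V counts in KO3 and Trbv5 79.1% in KO7, and the KO7 bar of Trbv15 stands at 15.7%.

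The gamma and delta loci differed too. Trgv2 had 1, 3 and 0 counts in the KO3 libraries against 632, 566 and 553 in the KO7 libraries, so that KO3 stood at 0.196% of the KO7 level (95% interval 0.0533% to 0.502%, exact binomial, counting error only). Its constant gene Trgc2 had 17, 23 and 21 counts against 1851, 1595 and 1525, or 1.05% of KO7 (0.804% to 1.35%). WT6 and WT0 both carried these transcripts (Trgc2 at 318 and 144 CPM), so among the 4 leukemias KO3 alone was nearly without them. The J segment Trgj2 went the same way, with 0, 1 and 1 counts against 31, 24 and 26. Trgv4 did not, as it stood at 25.6 ± 0.889 CPM in KO3 and 21.9 ± 1.52 CPM in KO7, and Trgc1 did not pass the test. In the delta locus, Trdv5 (chromosome 14, 54148662 to 54149201) went the other way, with 1204, 1329 and 1257 counts in KO3 and 95, 83 and 61 in KO7. The delta constant gene Trdc did not pass the test (log2 0.04).

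A regularity of the KO7 libraries, noticed after the values were seen, is given before the differences that follow. Transcripts that mark KO3 were never far below the level of KO3 in KO7: of the 7997 genes with at least 20 CPM in KO3, 0 stood under 7% of that level in KO7. The lowest were H19 (7.18%), Trdv5 (7.32%), Fam163b (7.39%), Gm4779 (7.76%), Trbv13-2 (8.07%) and Trbv15 (8.10%). In the opposite direction, 3 of 7994 genes with at least 20 CPM in KO7 stood under 5% in KO3 (Trgv2, Trgc2 and Trbv5). The series has 20 ordered pairs of groups, and in each of the 19 others at least 1 gene stood under 5%, the lowest gene lying between 0% and 3.37%. Some of these lowest genes were Y-linked: Kdm5d for KO3, KO7 and WT6 against WT0 with PBS, and Uty for KO7 and WT6 against WT0 with ERG-245. Kdm5d stood at 53.1 CPM in KO3, 41.6 CPM in KO7, 54.3 CPM in WT6 and 0 CPM in WT0 with PBS. Such pairs thus also differ in Y-linked transcripts. The number of genes under 5% varied among the 19 pairs. It was 1 of 7994 for KO7 against WT6, 2 of 7957 for WT0 with PBS against WT6, and at most 50 of 8074, for WT6 against WT0 with PBS. KO3 against KO7, with 0, thus lay only a few genes below the lowest of these counts. With at least 5 CPM in KO3 the lowest of 10809 genes was Slc9a2 at 6.22%, and rarer genes were not part of the rule (Ighv1-20, named after its values were seen, stood at 0.714 ± 0.302 CPM in KO3 and 0.0168 ± 0.0290 CPM in KO7). A narrower set, which lies within the 7997 genes above and so adds no separate support, is given for its levels. Among genes with at least 5 CPM in KO3 and under 2% of that level in WT6, in WT0 with PBS and in WT0 with the BCAT1 inhibitor ERG-245, which share no library with KO3 or KO7, there were 6: Trbv15, Trbv12-1, Trdv5, Gm4779, 8030474K03Rik and 3830403N18Rik. They lie on chromosomes 6, 14 and X, but not at 6 separate places. Trbv15 and Trbv12-1 belong to the same receptor locus. Gm4779 ends at 101794468 on chromosome X and 8030474K03Rik starts at 101794554. In KO7 they stood at 8.10%, 10.6%, 7.32%, 7.76%, 8.30% and 10.7% of KO3, in that order. Gm4779 shows the pattern most plainly, at 142.9 CPM in KO3, 11.1 CPM in KO7 and at most 0.0783 CPM in the wild-type groups. Trbv15 was at 8.07%, 7.96% and 8.28% of the KO3 mean in the 3 KO7 libraries, so all 3 carried it alike and none can be left out to remove it. By the same rule 2 genes marked KO7: Trbv5, at 1.59% in KO3, and Wwc1, a scaffold of the Hippo pathway, with 0 counts over the KO3 libraries and 288 over the KO7 libraries. For Wwc1, KO3 thus stood at 0% of the KO7 level (95% interval 0% to 1.11%, exact binomial, counting error only). Whether the KO7 libraries hold RNA of KO3 was not tested. Levels in KO7 of genes that are high in KO3, and the fold differences of those genes given below, may be limited by this floor.

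**Figure D2:**
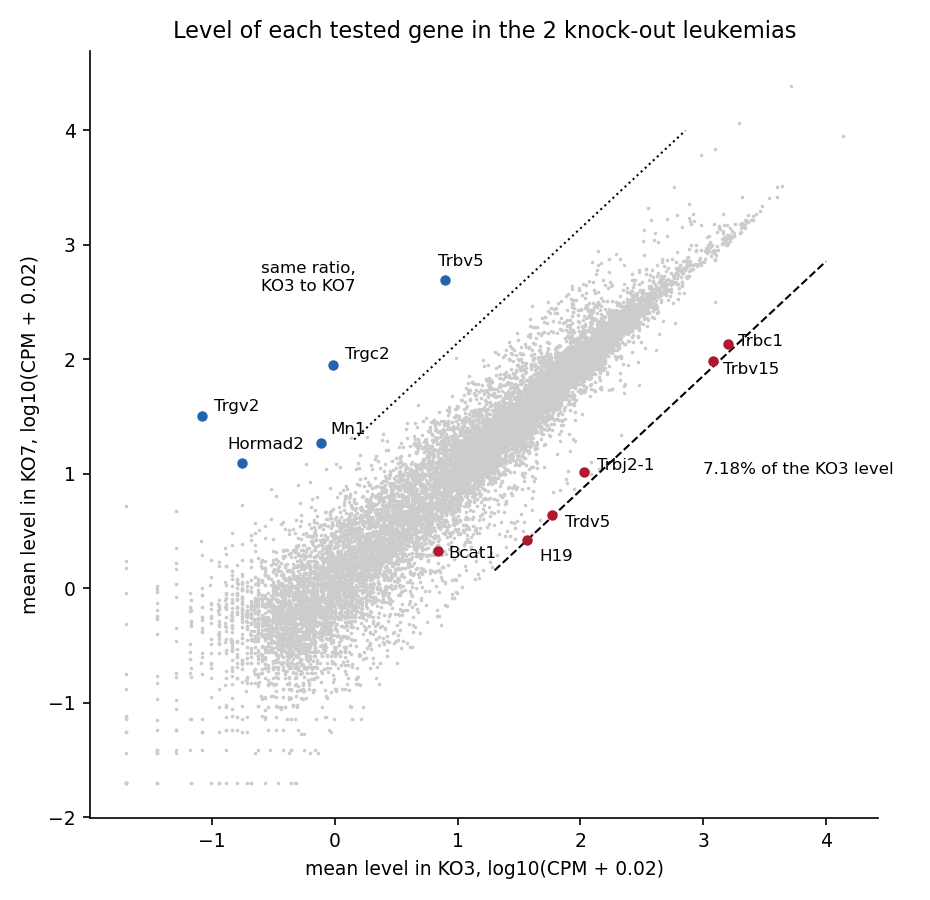
Mean level of each tested gene in KO3 (horizontal) and KO7 (vertical), on log10 axes of CPM plus 0.02, with named genes in red (higher in KO3) and blue (lower in KO3). The dashed line marks 7.18% of the KO3 level, which no gene with at least 20 CPM in KO3 lies below, whereas Trgv2, Trgc2 and Trbv5 lie beyond the dotted line of the same ratio in the other direction.

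Differences between the leukemias reached most genes. Of 15948 tested, 5757 were higher in KO3 (36.1%) and 5513 lower (34.6%) at an edgeR adjusted p under 0.05, or 70.7% in either direction. The spread between libraries was small (biological coefficient of variation of 2.18%), so a fold threshold is more telling. At least 2-fold, 1163 genes were higher in KO3 (7.29%) and 1962 lower (12.3%), which together are 19.6% of genes. The counts given below for gene lists are to be read against these shares of all genes, and a list near them is described only by its members. The median gene differed by 0.01 on the log2 scale. The extremes were uneven in the way described above: among called genes that averaged 5 CPM or more, 41 were at least 8-fold higher and 17 at least 8-fold lower in KO3, but 0 were at least 16-fold higher and 6 at least 16-fold lower. Libraries did not overlap for 72.0% of tested genes.

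Among the genes with the largest excess in KO3 were H19, an imprinted noncoding RNA of fetal growth, and Gli1, the transcriptional effector of Hedgehog signalling. H19 stood at 36.6, 36.6 and 36.2 CPM in KO3 and 2.51, 3.35 and 1.99 CPM in KO7 (log2 3.80, SE 0.101, edgeR adjusted p = 9.32e-48). Gli1 stood at 14.5, 12.6 and 14.4 CPM and 1.26, 1.19 and 1.14 CPM (log2 3.52). Both were high in all KO3 libraries and low in all KO7 libraries. WT6 and WT0 carried H19 at 10.7 and 1.99 CPM. Arg1, the arginase of urea synthesis and of alternatively activated macrophages, stood at 34.0 ± 1.44 CPM (SD, n = 3) in KO3 and 3.18 ± 0.260 CPM in KO7. Mpzl2, an adhesion molecule of thymic epithelium and thymocytes, stood at 212 ± 4.73 and 21.6 ± 1.35 CPM. Lgals7, a galectin, stood at 114 ± 5.49 and 10.6 ± 0.867 CPM. The other 10 genes named by the rule were Fam163b, Espnl, Acan (the proteoglycan aggrecan), Aif1l, Map2 (a microtubule protein of neurons), Cux2, Pde9a, Lmcd1, Ppp1r1b and Gjc1 (a connexin). Their log2 differences ran from 3.14 for Gjc1 to 3.76 for Fam163b.

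Among the genes with the largest excess in KO7 was Hormad2, a meiotic chromosome protein. It stood at 0.142, 0.234 and 0.0923 CPM in KO3 and 12.8, 12.2 and 12.7 CPM in KO7 (log2 -6.28, SE 0.253, edgeR adjusted p = 6.99e-36). Its level was below that of KO7 in WT6 and WT0 as well (0.148 and 2.54 CPM). Mn1, a transcriptional coregulator known from myeloid leukemia, stood at 0.850, 0.561 and 0.831 CPM and 18.5, 19.4 and 18 CPM (log2 -4.63). Unlike Hormad2 it stood near the KO7 level in WT6 (18 CPM) and near the KO3 level in WT0 (0.440 CPM). Wnt8b, a Wnt ligand, stood at 0.999 ± 0.321 CPM in KO3 and 12.3 ± 0.900 CPM in KO7. The neural chromatin factor Dpf1 (log2 -3.97), the monocyte receptor Cd300e (-3.72), the ceramide synthase Cers4 (-3.04) and the metalloprotease Adam33 (-2.92) were lower in KO3 too. The remaining genes of the rule were Spats2l, Trnp1, Apol10b, Ccdc92b, Hs3st2, Prxl2a, Ankrd36 and Phospho1, with log2 from -3.38 to -2.84. WT0 levels lay between those of KO3 and KO7 for most of the 15 genes, Prxl2a, Ccdc92b and Phospho1 among them. The exceptions were Mn1, Dpf1, Spats2l and Trnp1, for which WT0 lay below KO3.

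Coreceptors of T cells were lower in KO3. Cd4 stood at 114, 108 and 111 CPM in KO3 and 446, 452 and 435 CPM in KO7 (log2 -2.0, SE 0.027, edgeR adjusted p = 1.00e-67). Cd8a stood at 323, 332 and 324 CPM in KO3 and 806, 817 and 812 CPM in KO7, and Cd8b1 was lower in KO3 as well (log2 -1.45). All 3 coreceptor genes were thus lower in every KO3 library, with WT0 lower still (64.7 CPM for Cd4, 164 CPM for Cd8a) and WT6 nearer to KO7 for Cd8a (870.0 CPM). Of the 21 immature thymocyte genes, 7 were higher and 13 lower in KO3, with a median log2 of -0.28 (6 at least 2-fold lower, 1 at least 2-fold higher). Among them Cd24a, a surface protein of thymocytes that red cell precursors share, was lower (log2 -1.58), whereas Dntt, the polymerase that adds bases at receptor junctions, was higher. Dntt stood at 710.1, 686 and 679 CPM in KO3 and 379.8, 374 and 382 CPM in KO7.

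The CD3 chains, which carry the signal of the receptor, were higher in KO3. Cd3d stood at 637, 629.5 and 621 CPM in KO3 and 347, 338 and 329 CPM in KO7 (log2 0.90, SE 0.025, edgeR adjusted p = 9.57e-47), with Cd3e (log2 0.80) and Cd3g (0.73) alike. No library of the leukemias overlapped in these 3 genes. The whole list of CD3 chains and proximal signalling had 16 of 24 members higher and 6 lower, none of them 2-fold. Mature T cell genes had 18 of 28 higher and 7 lower (median log2 0.48), 8 of them at least 2-fold higher. The receptor of interleukin 7, Il7r, stood at 53.7 ± 1.43 CPM and 26.9 ± 0.602 CPM, and the chemokine receptor Ccr4 at 39.8 ± 0.846 CPM and 19 ± 1.33 CPM. Homing receptors were near the shares over all genes, with 11 of 24 higher and 9 lower, among the latter the integrin chain Itgb2 (log2 -0.59) and Cd44 (-0.92).

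T-lineage transcription factors had 18 of 26 members higher in KO3 and 6 lower (median log2 0.39). Lef1, an effector of Wnt signalling in early thymocytes, stood at 468, 471 and 474 CPM in KO3 and 222, 222 and 206 CPM in KO7 (log2 1.12). Its relative Tcf7 was higher by log2 0.52, Tcf12 by 0.63, and Ikzf2 (Helios) by 1.38. For Ikzf2, both knock-outs lay below the wild types, KO7 further than KO3, with WT6 and WT0 at 182 and 212 CPM against 145 ± 3.06 CPM in KO3 and 55.7 ± 2.79 CPM in KO7.

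**Figure D3:**
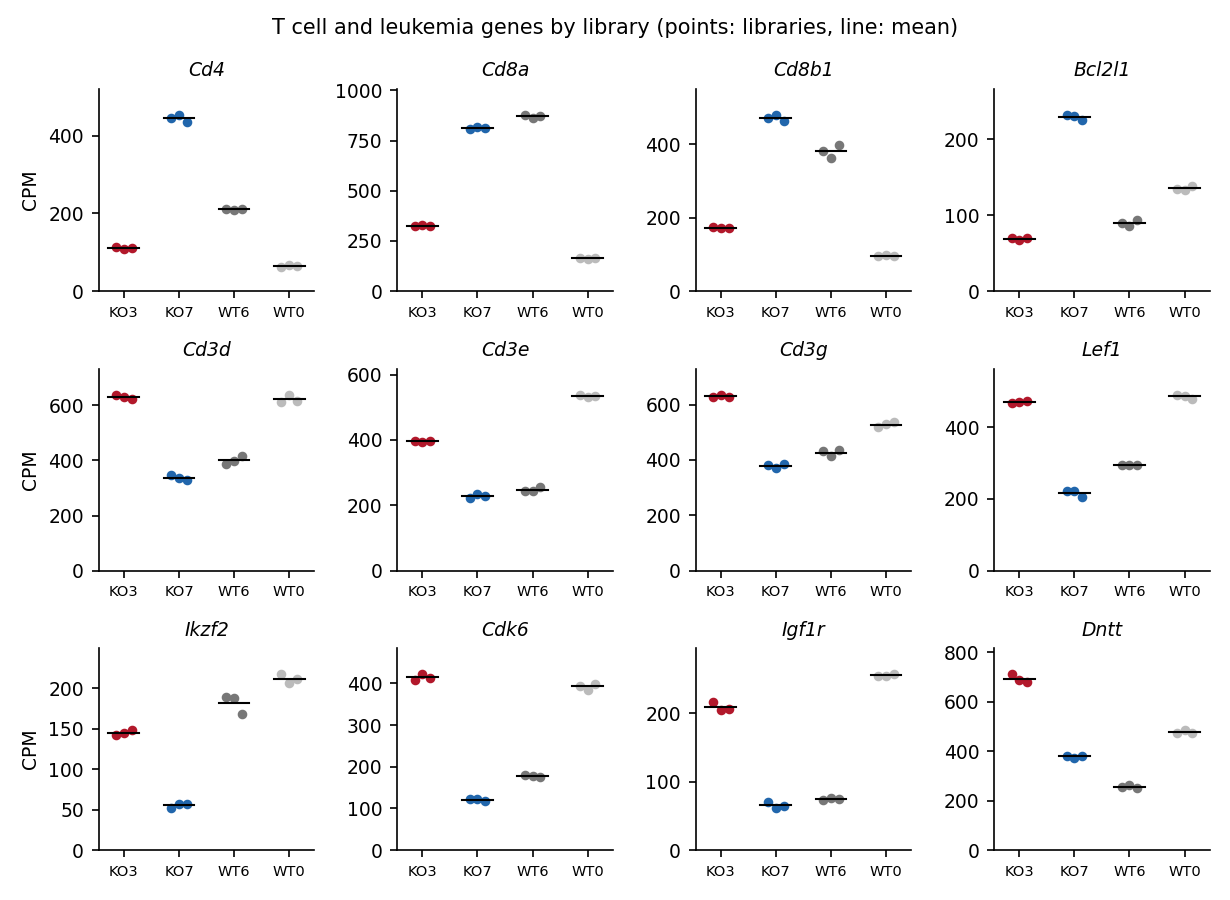
Level in CPM (vertical axes from 0) of 12 T cell and leukemia genes in each library of KO3, KO7, WT6 and WT0 with PBS; points are libraries and lines are means of 3. Cd4, Cd8a, Cd8b1 and Bcl2l1 were lower, and the other 8 genes higher, in every KO3 library than in every KO7 library.

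NOTCH1 targets did not move as a block. Of 19 measured, 10 were higher and 9 lower in KO3, with a median log2 of 0.15. Cdk6, a kinase that drives entry into the cell cycle, stood at 409, 422 and 413 CPM in KO3 and 123, 123 and 117 CPM in KO7 (log2 1.77, SE 0.026, edgeR adjusted p = 1.12e-64). The growth factor receptor Igf1r stood at 216, 205 and 207 CPM in KO3 and 70.4, 62.0 and 64.7 CPM in KO7 (log2 1.67). In KO3 both were nearer to WT0 (393 and 256 CPM), and in KO7 nearer to WT6 (178 and 74.4 CPM). Nrarp, a feedback inhibitor of NOTCH, was higher in KO3 (log2 1.16), as was Myc (0.57). Ptcra, also a target, was lower (log2 -0.70). Notch1 itself, named after its value was seen, differed little (log2 -0.13).

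Among early progenitor and T-ALL oncogenic factors, 10 of the 18 that passed the filter on low counts (of 25 listed) were lower in KO3 and 4 higher, 7 of them at least 2-fold lower (median log2 -0.78). Tal1 stood at 84.4, 86.5 and 87.0 CPM in KO3 and 311, 311 and 308 CPM in KO7 (log2 -1.85). Its partner Lmo2 differed alike (log2 -1.80), as did Lyl1 (-1.62). Tal1 and Lmo2 serve red cell precursors as well, and their levels in WT6 (86.1 and 52.3 CPM) and WT0 (266 and 146 CPM) moved with the erythroid share of counts, which was 1.24% in KO3, 1.34% in WT6, 4.32% in WT0 and 6.07% in KO7. The part of red cell precursors in these differences was not tested. T-ALL tumour suppressors split evenly, with 9 of 23 higher and 9 lower. Cytokine receptor signalling, with 12 of 30 members higher and 12 lower, was near the shares over all genes. Pim1, a kinase induced by STAT5, was lower in KO3 (log2 -1.14), and so was Cish, a feedback inhibitor of the same pathway (-1.70).

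Genes of protein synthesis were higher in KO3. Of 84 cytosolic ribosomal protein genes tested, 81 were higher and 2 lower, with a median log2 of 0.44 and none at least 2-fold higher. Rpl3 stood at 2531, 2548 and 2489.5 CPM in KO3 and 1641, 1643 and 1647 CPM in KO7. The pair of lower members, Rps4l and Rpl3l, named after their values were seen, are copies outside the common set of ribosomal proteins with low levels (1.24 ± 0.243 and 0.203 ± 0.0733 CPM in KO3, 2.90 ± 1.01 and 0.747 ± 0.316 CPM in KO7). Mitochondrial ribosomal proteins had 58 of 78 higher and 4 lower (median log2 0.18). Of 30 genes of MYC and ribosome biogenesis, 29 were higher and 1 lower (median log2 0.38). Nucleophosmin, Npm1, stood at 1611, 1611 and 1497 CPM in KO3 and 1007, 978 and 1037 CPM in KO7. Myc itself stood at 291, 282 and 298 CPM in KO3 and 199, 186 and 201 CPM in KO7 (log2 0.57). The exception was Odc1, the first enzyme of polyamine synthesis, at 342 ± 3.02 CPM in KO3 and 562 ± 1.67 CPM in KO7. Heat shock genes had 10 of 15 members higher, none of them 2-fold, among them the chaperone Hsp90ab1 (log2 0.52). Another 3 were lower, 1 of them at least 2-fold, and the lowest log2 of the list was -4.56. Genes of the unfolded protein response had 14 of 21 higher and 5 lower. Each of these list medians kept its sign under every scaling tried.

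Genes of cell division were lower in KO3. In the G2 and M phase list, 24 of 30 were lower and 3 higher, none of them 2-fold, with a median log2 of -0.32. The proliferation marker Mki67 stood at 810.4, 809.6 and 783 CPM in KO3 and 1534, 1500.2 and 1551 CPM in KO7 (log2 -0.93). Ube2c, Prc1, Ccna2 and Ccnb2, which act in mitosis, were lower by log2 -0.57 to -0.85. S phase genes split into 13 higher and 9 lower of 30. Rrm2, a subunit of ribonucleotide reductase, was lower (log2 -0.84), whereas the replication genes Pola1 (0.52) and Gins2 (0.70) were higher. Of 19 cell cycle regulators, 11 were lower and 4 higher: Cdk4 was higher (log2 0.62), E2f2 lower (-1.51) and Ccnd3, the cyclin D of thymocytes, lower (-0.74). Mki67, Rrm2 and E2f2 were lower in WT6 (861, 346 and 168 CPM) than in WT0 (2142, 631 and 405 CPM), as was the erythroid share (1.34% and 4.32%). That share was highest in KO7 (6.07%), where Mki67 (1528 CPM) and Rrm2 (615 CPM) stood below WT0 and E2f2 (448 CPM) above it. The part of red cell precursors was not tested.

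Genes that govern survival differed in both directions. Bcl2l1, which encodes the survival protein BCL-XL, stood at 69.6, 67.4 and 70.3 CPM in KO3 and 231, 231 and 224 CPM in KO7 (log2 -1.73). Red cell precursors express it too. Mcl1 was lower in KO3 (log2 -0.57), and Bcl2l2 (BCL-W) higher (1.40). In all, 5 of 17 tested members of the family were higher and 9 lower, and no direction is read from so few. Of the killers, Bmf was lower (log2 -0.74) and Pmaip1 (Noxa) higher (1.21). The list of p53 and its targets had 8 of 26 higher and 13 lower, with Btg2 at 300.1 ± 1.86 CPM in KO3 and 601 ± 5.03 CPM in KO7, and the immediate early genes had 13 of 20 lower and 3 higher. Jun, a subunit of AP-1, was the widest exception among the latter, at 70.8, 62.8 and 70.1 CPM in KO3 and 19.6, 19.8 and 19.2 CPM in KO7.

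**Figure D4:**
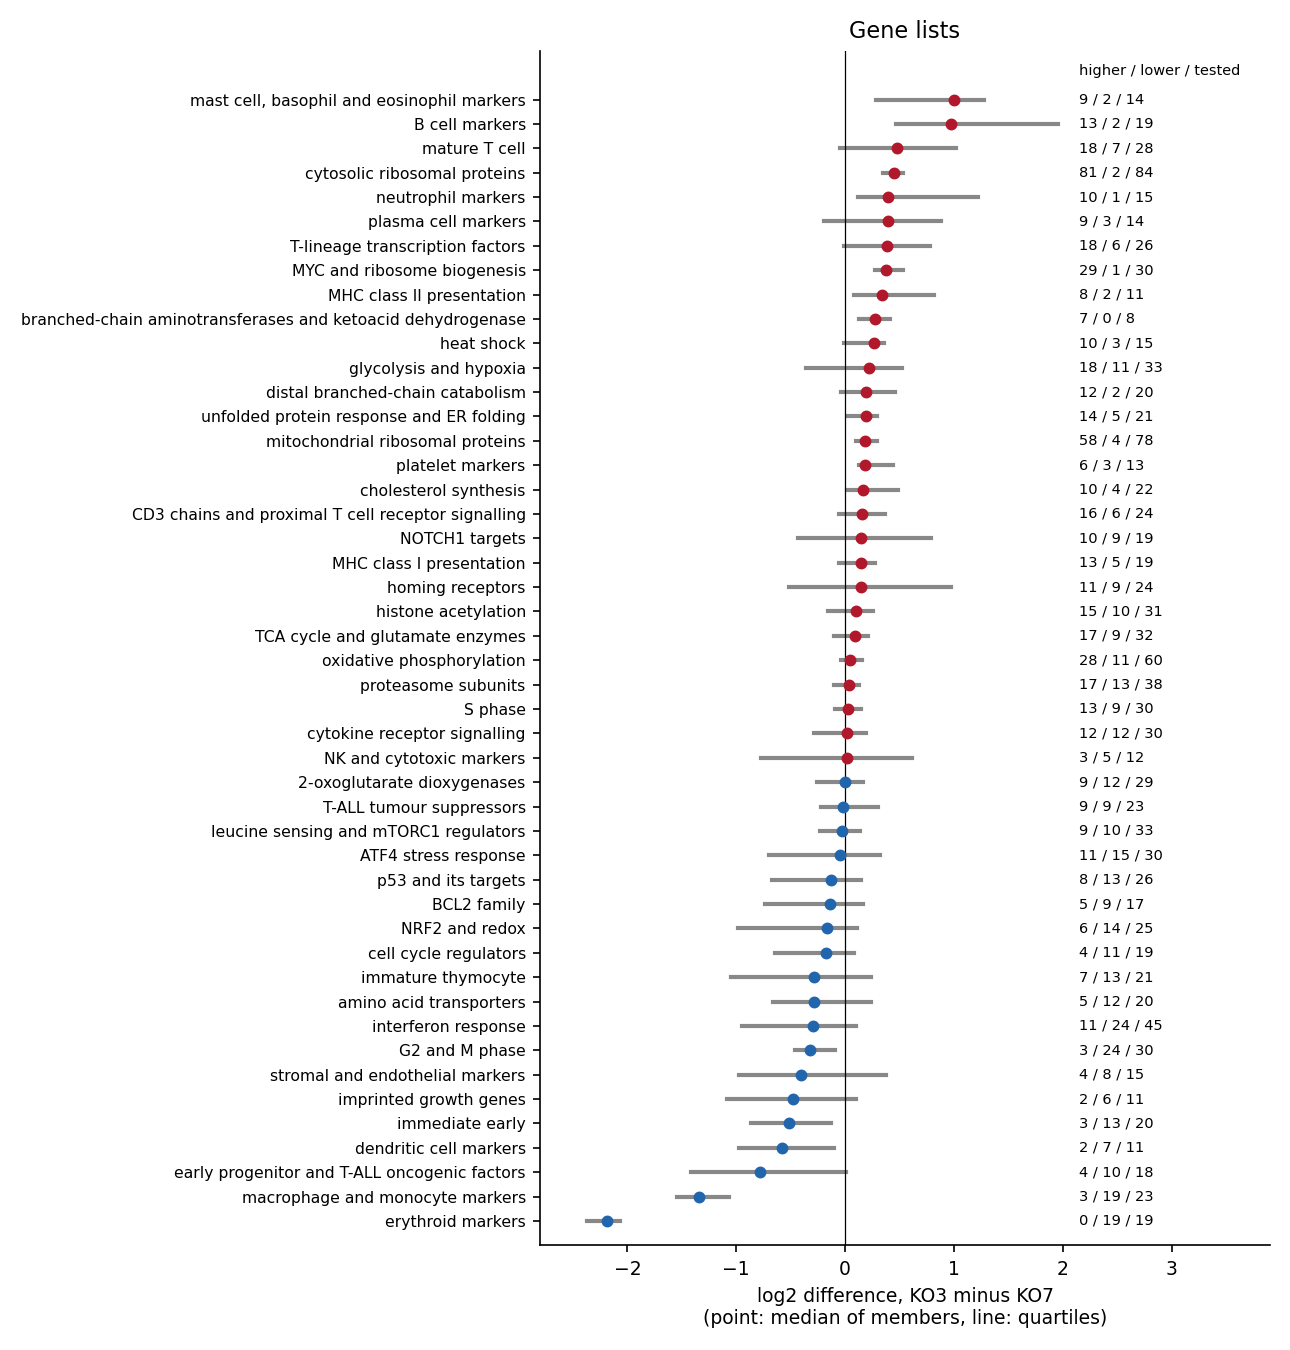
Median log2 difference, KO3 minus KO7, of each gene list (points, red above 0 and blue below) with the quartiles of its members (lines), and the numbers of members higher, lower and tested. Erythroid markers (median -2.19) and macrophage and monocyte markers (-1.34) lie lowest, and ribosomal and MYC lists have short lines above 0.

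Around the missing enzyme, the aminotransferases and the branched-chain ketoacid dehydrogenase complex were slightly higher in KO3, with 7 of 8 members higher and 0 lower (median log2 0.28 with Bcat1 counted). The mitochondrial aminotransferase Bcat2 stood at 71.6, 72.2 and 76.4 CPM in KO3 and 62.2, 65.2 and 61.6 CPM in KO7 (log2 0.22). Bckdk, the kinase that shuts the dehydrogenase off, was higher (log2 0.61), and so was Ppm1k, the phosphatase that turns it on (0.35). Further down the pathway, 12 of 20 genes were higher and 2 lower, the widest difference being in Abat, the GABA transaminase, which was lower (log2 -2.14). Amino acid transporters had 12 of 20 lower and 5 higher. Slc43a2, an exporter and importer of leucine and its relatives (LAT4), stood at 59.8, 61.7 and 59.0 CPM in KO3 and 179.9, 172 and 171 CPM in KO7 (log2 -1.54, SE 0.034, edgeR adjusted p = 4.69e-53). Its relative Slc43a1 (LAT3) was lower as well, at 121 ± 5.10 CPM against 243 ± 4.42 CPM. The lysosomal transporter Slc36a4 went the other way, at 41.1, 43.7 and 37.5 CPM in KO3 and 11.9, 11.1 and 11.7 CPM in KO7.

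Lists of amino acid sensing split. Of 33 regulators of mTORC1, 9 were higher and 10 lower, no more than among all genes, with Fnip2, a folliculin partner, lower (log2 -1.82) and Deptor, an mTOR inhibitor, higher (0.96). The ATF4 stress response had 11 of 30 higher and 15 lower. Asparagine synthetase, Asns, stood at 29.0, 30.6 and 29.3 CPM in KO3 and 70.1, 69.6 and 70.0 CPM in KO7. The serine synthesis enzymes Psat1 (log2 0.92) and Phgdh (0.48) were higher in KO3, so targets of the same factor differed in opposite directions. The 2-oxoglutarate dioxygenases, which use the keto acid that BCAT1 consumes, had 9 of 29 higher and 12 lower. Tet1, which oxidizes methylcytosine, stood at 15.3, 19 and 16.2 CPM in KO3 and 4.22, 4.60 and 4.94 CPM in KO7 (log2 1.88), and Tet2 was higher too (0.90). Histone acetylation genes had 15 of 31 higher and 10 lower, with the deacetylase Hdac4 higher (log2 1.12).

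In central metabolism, 28 of 60 genes of oxidative phosphorylation were higher and 11 lower, all by less than 2-fold (median log2 0.04). In the tricarboxylic acid cycle and glutamate list, 17 of 32 were higher and 9 lower. Idh2, the mitochondrial isocitrate dehydrogenase, stood at 122, 120.4 and 126 CPM in KO3 and 57.3, 56.0 and 51.9 CPM in KO7 (log2 1.16). Glutamine synthetase, Glul, stood at 108, 104 and 112 CPM in KO3 and 279.8, 289 and 275 CPM in KO7 (log2 -1.38), again with WT6 and WT0 near KO3 (135 and 135 CPM). Glycolysis and hypoxia genes had 18 of 33 higher and 11 lower, led by p by the hypoxia gene Ndrg1 at 209 ± 1.78 CPM in KO3 and 76.3 ± 0.418 CPM in KO7. Cholesterol synthesis had 10 of 22 higher and 4 lower. NRF2 and redox genes were mostly lower in KO3, with 14 of 25 lower, 6 of them at least 2-fold, and 6 higher. Heme oxygenase, Hmox1, stood at 172, 171 and 175 CPM in KO3 and 588, 586 and 583 CPM in KO7. Gpx1 (log2 -1.72), Prdx2 (-1.30) and Gclm (-1.65) were lower as well. Hmox1 is also in the macrophage list, and red cells hold much Gpx1 and Prdx2; the part of those cells was not tested.

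Interferon response genes were mostly lower in KO3, with 24 of 45 lower and 11 higher (median log2 -0.29), 8 at least 2-fold lower and 1 at least 2-fold higher. The promoters of Rsad2 and Isg15, from RefSeq (GRCm38.p6, 250 bases before to 50 after the start), are shown because interferon acts through an element whose core is GAAA, any 2 bases, GAAA, and whose matches on either strand stand in capitals. Rsad2 (chr12:26456403-26456702, minus strand) and Isg15 (chr4:156200769-156201068, minus strand) both hold matches. Isg20, with a smaller p than Isg15, has 3 starts in the table, and none of their windows holds a match.
Rsad2: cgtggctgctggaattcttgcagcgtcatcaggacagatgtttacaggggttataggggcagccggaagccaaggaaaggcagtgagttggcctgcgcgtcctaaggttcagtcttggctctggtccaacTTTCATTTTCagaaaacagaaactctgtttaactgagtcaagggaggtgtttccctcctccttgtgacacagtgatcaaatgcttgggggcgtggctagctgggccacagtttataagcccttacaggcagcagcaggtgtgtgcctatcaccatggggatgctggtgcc
Isg15: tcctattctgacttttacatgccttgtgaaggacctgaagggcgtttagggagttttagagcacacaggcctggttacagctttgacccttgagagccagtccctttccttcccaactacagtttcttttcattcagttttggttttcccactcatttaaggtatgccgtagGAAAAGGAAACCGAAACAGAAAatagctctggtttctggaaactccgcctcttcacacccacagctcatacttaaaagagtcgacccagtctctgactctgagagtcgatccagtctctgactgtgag
Overlapping matches in Isg15 run together. Of the 24 lower members, 16 had a promoter in the table and 9 of these held the element. Counted by promoter, 9 of 19 held it, against 3.44% of all 32851 promoters. The list was chosen as interferon response genes and no count is given for its other members. These shares therefore do not bear on being lower in KO3. A match is a run of letters and not a binding site. Rsad2, the antiviral enzyme viperin, stood at 67.9, 70.9 and 68.0 CPM in KO3 and 319, 332 and 326 CPM in KO7 (log2 -2.24, SE 0.029, edgeR adjusted p = 9.19e-69). The ubiquitin-like Isg15 stood at 38.6, 38.8 and 37.1 CPM in KO3 and 133, 129 and 126 CPM in KO7, and the nuclease Isg20 at 65.0 ± 1.25 and 253 ± 7.45 CPM. These 3 were low in every KO3 library and in WT6 (72.3, 32.9 and 67.1 CPM), and high in WT0 (361, 109 and 163 CPM). The erythroid share of counts was low in KO3 and WT6 (1.24% and 1.34%) and high in WT0 and KO7 (4.32% and 6.07%) as well, and its part in these differences was not tested. Of the 11 higher members, only Ifi204, of a DNA sensor family, was at least 2-fold higher. It stood at 292, 306 and 292 CPM in KO3 and 92.7, 97.0 and 97.9 CPM in KO7. MHC class I presentation had 13 of 19 members higher in KO3 and 5 lower, none 2-fold, with the transactivator Nlrc5 higher (log2 0.87) and the peptide transporter Tap2 lower (-0.59).

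Transcripts of red cell precursors were lower in KO3. All 19 erythroid markers measured, of 20 listed, were at least 2-fold lower in KO3 (median log2 -2.19). The promoters of Alas2 (chrX:150547167-150547466, plus strand) and Hemgn (chr4:46404134-46404433, minus strand) are shown because erythroid genes are known for sites of the factor GATA1, and Hemgn was picked after its letters were seen. Capitals mark AGATAA on either strand.
Alas2: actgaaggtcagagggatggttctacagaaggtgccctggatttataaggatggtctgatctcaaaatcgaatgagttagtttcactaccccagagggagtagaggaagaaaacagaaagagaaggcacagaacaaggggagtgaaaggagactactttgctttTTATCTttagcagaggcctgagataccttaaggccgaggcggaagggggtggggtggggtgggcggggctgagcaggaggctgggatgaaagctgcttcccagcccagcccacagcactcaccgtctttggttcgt
Hemgn: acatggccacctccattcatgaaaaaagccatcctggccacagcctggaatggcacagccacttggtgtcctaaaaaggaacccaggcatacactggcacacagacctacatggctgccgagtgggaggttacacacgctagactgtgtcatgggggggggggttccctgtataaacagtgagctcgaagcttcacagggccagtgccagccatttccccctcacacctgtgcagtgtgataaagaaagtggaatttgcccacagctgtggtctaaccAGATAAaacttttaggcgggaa
The 14 erythroid markers with a promoter in the table had 15 promoters. Of these, 6 held AGATAA and 1 held CCACACCC, the letters bound by KLF1, on either strand. Among all promoters, 11.2% and 3.56% held them. The list was chosen as erythroid genes, so these shares do not bear on being lower in KO3. Ermap, with a smaller p than Hemgn, held neither. Alas2, the enzyme that starts heme synthesis in red cells, stood at 359, 351 and 360.3 CPM in KO3 and 2084, 2134 and 2101 CPM in KO7 (log2 -2.56, SE 0.023, edgeR adjusted p = 3.09e-79). The anion exchanger Slc4a1 stood at 577, 579 and 585 CPM in KO3 and 3227, 3198 and 3164 CPM in KO7. The list summed to 1.22% to 1.26% of counts in the KO3 libraries and to 5.87% to 6.18% in the KO7 libraries. The labels call the samples leukemic T cells, and none of the erythroid markers was at 0.

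Macrophage and monocyte markers were lower in KO3 in 19 of 23 genes, 18 of them at least 2-fold, and higher in 3 (median log2 -1.34). Their summed share was 0.201% to 0.203% of counts in KO3 and 0.483% to 0.487% in KO7. Cd5l, secreted by macrophages of the red pulp, stood at 87.4, 86.7 and 86.1 CPM in KO3 and 333, 329.5 and 334 CPM in KO7 (log2 -1.94). The defining markers Adgre1 (log2 -1.63) and Csf1r (-1.30), and the complement gene C1qb (-1.31), were lower alike. The higher members, named after their values were seen, were Lyz2 (log2 1.67), Ccr2 (1.09) and Cx3cr1 (0.92), genes of monocytes. Neutrophil markers had 10 of 15 higher in KO3 and 1 lower, with the granule proteases Elane (log2 1.76) and Ctsg (2.31) among the widest. Stromal and endothelial markers had 8 of 15 lower in KO3 and 4 higher (median log2 -0.40). The niche chemokine Cxcl12 was lower (log2 -2.08), whereas Pdgfrb, a receptor of pericytes, was higher (1.96).

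B cell markers were higher in KO3 in 13 of 19 genes, 9 of them at least 2-fold, and lower in 2 (median log2 0.97). Ms4a1 (CD20) stood at 13.8, 11.4 and 12.4 CPM in KO3 and 2.36, 2.39 and 2.84 CPM in KO7. The lower members were Ighm, the heavy chain of IgM, at 762, 775 and 763 CPM in KO3 and 2278, 2271 and 2261 CPM in KO7, and Cd55 (log2 -1.57). Because Ighm is so abundant, the summed share of the list was higher in KO7 (0.239%) than in KO3 (0.0975%), against the direction of most members. Immunoglobulin genes together took nearly the same share of counts, 0.755 ± 0.00142% (SD, n = 3) in KO3 and 0.766 ± 0.00943% in KO7. Their composition differed. Of 95 heavy chain V segments tested, 46 were higher in KO3 (38 at least 2-fold) and 27 lower (17 at least 2-fold). Of 95 kappa V segments, 52 were higher (41 at least 2-fold) and 28 lower (12 at least 2-fold). Among all genes, 19.6% differed by at least 2-fold in either direction. Ighv1-39 stood at 9.73 ± 0.293 CPM in KO3 and 102 ± 2.47 CPM in KO7, and Ighv8-5 at 46.6 ± 2.80 and 3.95 ± 0.324 CPM. Of the plasma cell list, Igha was lower in KO3 (log2 -2.05) and Sdc1, Mzb1 and Jchain higher (1.26, 1.05 and 0.45).

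**Figure D5:**
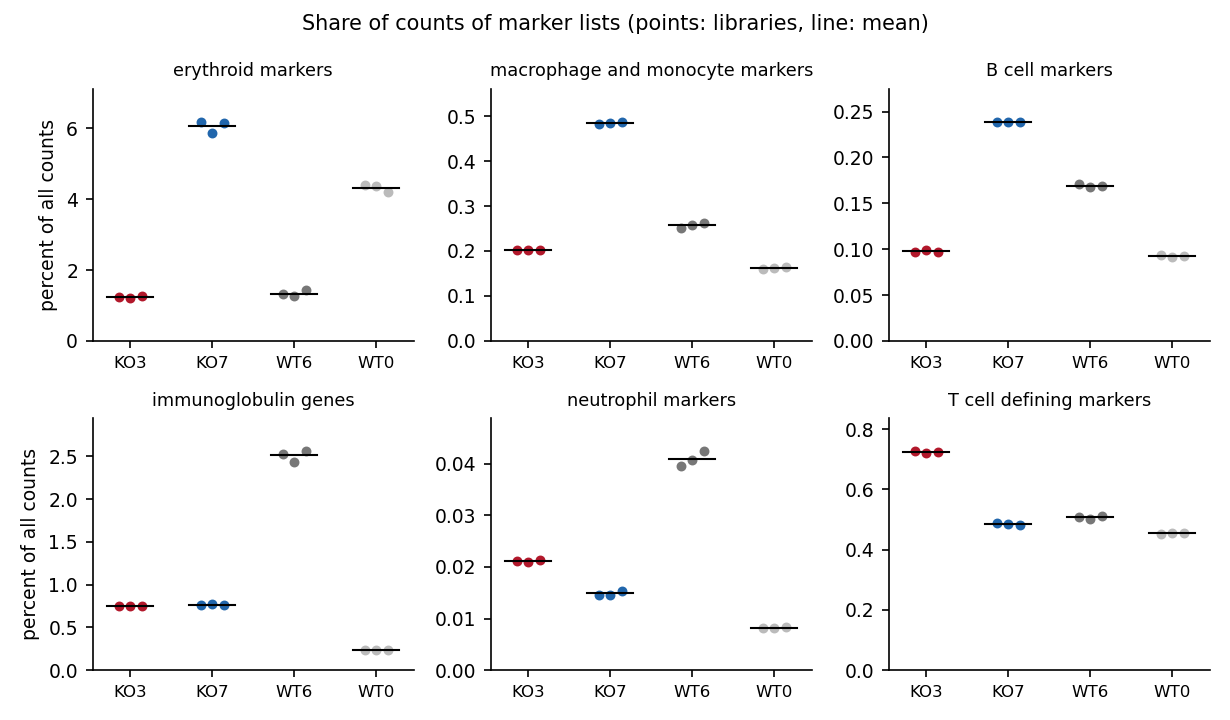
Share of all counts, in percent, taken by 6 marker lists in each library of KO3, KO7, WT6 and WT0 with PBS; points are libraries and lines are means of 3. Erythroid markers stood at 1.24% in KO3 and 6.07% in KO7, while immunoglobulin genes took 0.755% and 0.766%.

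Set beside the wild-type leukemias, KO7 was more often the leukemia that stood apart. Of the 3125 genes at least 2-fold different between KO3 and KO7, KO7 alone lay outside the range of WT6 and WT0 for 901 genes (28.8%) and KO3 alone for 408 (13.1%). Both lay outside for 1498 (47.9%) and neither for 318 (10.2%). When a mean had to lie outside by at least 1.5 times, KO7 alone did so for 1180 genes and KO3 alone for 419, both for 245 and neither for 1281. Counts of genes at least 2-fold different gave the same picture: 1833 genes between KO3 and WT6 and 1954 between KO3 and WT0 (11.5% and 12.3% of tested genes), 2784 between KO7 and WT6 and 2584 between KO7 and WT0 (17.5% and 16.2%). These comparisons share libraries and are given side by side only. The 2 wild-type leukemias, which share no library with KO3 or KO7, differed by at least 2-fold in 3013 genes (18.9%), close to the 3125 (19.6%) of the knock-out leukemias.

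Part of the difference between the knock-outs recurred between the wild types. Of the 1962 genes at least 2-fold lower in KO3 than in KO7, 607 (30.9%) were also at least 2-fold lower in WT6 than in WT0, where they made up 39.1% of the 1554 such genes (9.74% of tested genes), and 223 (11.4%) were higher there. The erythroid markers belong to the former: Alas2 stood at 333 CPM in WT6 and 1130.5 CPM in WT0. For the 1163 genes higher in KO3 there was no such tilt, with 260 (22.4%) among the 1459 genes at least 2-fold higher in WT6 than in WT0 (9.15% of tested genes) and 320 (27.5%) among those lower. Median log2 differences of genes averaging 5 CPM or more ran from -0.03 on chromosome 19 to 0.11 on chromosome 14, against 0.04 over all chromosomes.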

How the data were processed

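The authors deposited 1 table of raw fragment counts per gene for all 15 libraries, 3 in each of 5 groups. Per the file headers, counting used featureCounts 2.0.1 on read pairs with both ends mapped and no chimeras, a minimum overlap of 25 bases, strand setting 2 and RefSeq GRCm38.p6 genes. Tools named in the submitters' processing notes, without versions, are STAR, Trim Galore, Subread and DESeq2, and the build named there is mm10. The deposited exon length column (another quantity) was not used, and 3 genes whose records were broken over several lines (Neb, Mycbp2 and Huwe1) were left out.

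Counts of 15948 genes that passed edgeR's filter on low counts were scaled with TMM factors and fitted with edgeR 4.0.16 (limma 3.58.1, R 4.3.3) by the quasi-likelihood test over all 15 libraries, with groups as the only term and Benjamini-Hochberg adjustment over all genes. KO3 minus KO7 was the contrast, with an adjusted p under 0.05 as threshold. Alternatives included DESeq2 1.42.0, and shares, floors and figures came from Python 3.11.15. On simulated counts of 15948 genes for this comparison, 197 of 200 changed genes were recovered, with 11 calls among the unchanged. The changed genes were well expressed and differed by at least 2-fold, and every gene had the same spread between libraries. Recovery of smaller differences, of rare genes, or with most genes changed was not tested. Same-numbered libraries did not deviate together, so no pairing was used.

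Named genes are Bcat1, the 15 per direction with the largest fitted fold change (adjusted p under 0.05, mean of at least 5 CPM, no overlap of libraries, without gene models, pseudogenes, receptor and immunoglobulin segments and X inactivation and Y-linked genes), and up to 5 members per list with the smallest p. Some genes of the rule are not reported here. Others are named as picked after their values were seen. The groups, lists and rules were chosen with earlier results of these data known.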

Additional observations from a re-analysis of the deposited data

How the results depend on the processing

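With DESeq2, upper quartile scaling, total counts, no filter on low counts, only the 6 knock-out libraries, or without erythroid, immunoglobulin and receptor genes, 5338 to 6425 genes were higher and 5054 to 5737 lower in KO3, of which 1019 to 1303 and 1822 to 2261 by at least 2-fold. Testing against a fold of 1.5 gave 1438 and 2282. With the replicate number as a block, 5729 genes were higher and 5489 lower (1162 and 1956 by at least 2-fold). That block has no basis in pairing, since deviations of KO3 and KO7 libraries correlated at -0.01 to 0.01 whatever their numbers. Leaving out each library in turn gave 5495 to 5558 higher and 5285 to 5372 lower genes, 1161 to 1202 and 1960 to 2011 by at least 2-fold, a Bcat1 difference of 1.55 to 1.94 on the log2 scale, and 6.18% to 7.47% as the lowest level of a KO3 gene in KO7; the last, and its 5 CPM minimum, were added after the data were seen. Placement against the wild types moved most: when a mean had to lie outside by at least 1.5 times, genes with both knock-outs outside fell from 1498 to 245, and genes with neither went from 318 to 1281, because the range was widened. Values of single genes never changed sign under these settings and kept their side of the threshold in 3807 cases, the 1 exception being Gzmk without KO7 replicate 3 (log2 -0.67). Median differences of the dioxygenase, tumour suppressor, mTORC1, cytotoxic and immunoglobulin lambda lists lay near 0 and changed sign under some settings. Each group is 1 leukemia, so no setting measures the spread between leukemias of the same genotype, and at 17645879 or more fragments a library, genes below the filter were not tested.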
